A study of Mus musculus with 32 samples.

Results

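The 7 genes described here encode the sterol regulatory element-binding proteins (SREBPs) and the proteins that hold, escort and cut them: Srebf1, Srebf2, Scap, Insig1, Insig2, Mbtps1 and Mbtps2. They were chosen by symbol from 55291 gene symbols, and all 7 were listed in the tables of all 4 stages. Messenger RNA was sequenced from whole brains of C57BL/6J mice that were Dhcr7+/+ (WT) or Dhcr7-/- (KO), the KO modelling Smith-Lemli-Opitz syndrome. Embryonic brains came from E12.5, E14.5 or E16.5 and newborn brains from PND0, with 4 libraries in each of the 8 groups and 32 in all. Dhcr7 encodes the enzyme that turns 7-dehydrocholesterol into cholesterol, the last step of one branch of the pathway. The labels do not say which part of Dhcr7 the KO lacks, and whole brains were used, so cell types were not measured apart. The labels give neither the litter nor the sex of a brain, nor do they say how the replicates of a group relate, so p-values measure the spread between these libraries only.

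SREBPs are made as membrane proteins of the endoplasmic reticulum (ER), where they are bound to Scap, their escort protein. When sterols are scarce Scap carries SREBP to the Golgi in COPII vesicles, and when sterols are plentiful Scap binds an Insig protein and the complex is retained. In the Golgi, site-1 protease (Mbtps1) and then site-2 protease (Mbtps2) release the part of SREBP that enters the nucleus and raises transcription. SREBP-2, from Srebf2, acts mainly on genes of cholesterol synthesis and uptake, and SREBP-1, from Srebf1, mainly on genes of fatty acid synthesis. The fetal brain makes most of its own cholesterol once the blood-brain barrier has formed. Levels of messenger RNA, given below, say nothing of how much SREBP was cut or reached the nucleus.

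Library totals ran from 13868087 to 28318857 counts, and 3 counts, the limit that a count of 0 allows, came to between 0.106 and 0.216 CPM in the 32 libraries. That limit covers counting error only. CPM, counts scaled to library size, were computed over all 32 libraries with edgeR's TMM factors. Dhcr7 in KO libraries was at 32.5%, 18.8%, 27.4% and 16.2% of its WT mean at the 4 stages in order of age, and no KO library reached any WT library of its stage. Neuron markers (Tubb3, Map2, Stmn2, Snap25, Syp) summed to between 1849 and 5082 CPM in every library, and the liver markers Alb, Apoa1 and Afp to at most 38.5 CPM. In some libraries a measure stood apart. KO replicate 1 at E12.5 had 5.64% of its counts on 1 ribosomal RNA gene, against 0.191% to 0.376% in the other 7 libraries of that stage. WT replicate 1 at E16.5 had 3.75% on that gene, against 0.356% to 0.626% in the other 7 of its stage. At PND0, WT replicate 4 had 60.02 CPM of Dhcr7 against 96.9 to 102 CPM in the other WT libraries, and KO replicate 3 had 2261 CPM of blood markers against 228 to 629 CPM in the other KO libraries. KO replicates 3 and 4 at E14.5 had 2.68% and 2.55% on the ribosomal RNA gene, against 0.869% to 1.17% in the other libraries of that stage. At E12.5, WT replicate 3 had 8945 CPM of blood markers, against 1568 to 4765 CPM in the other libraries. WT replicate 1 there had 308 CPM of oligodendrocyte lineage markers, against 101 to 152 CPM in the others.

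**Figure D1:**
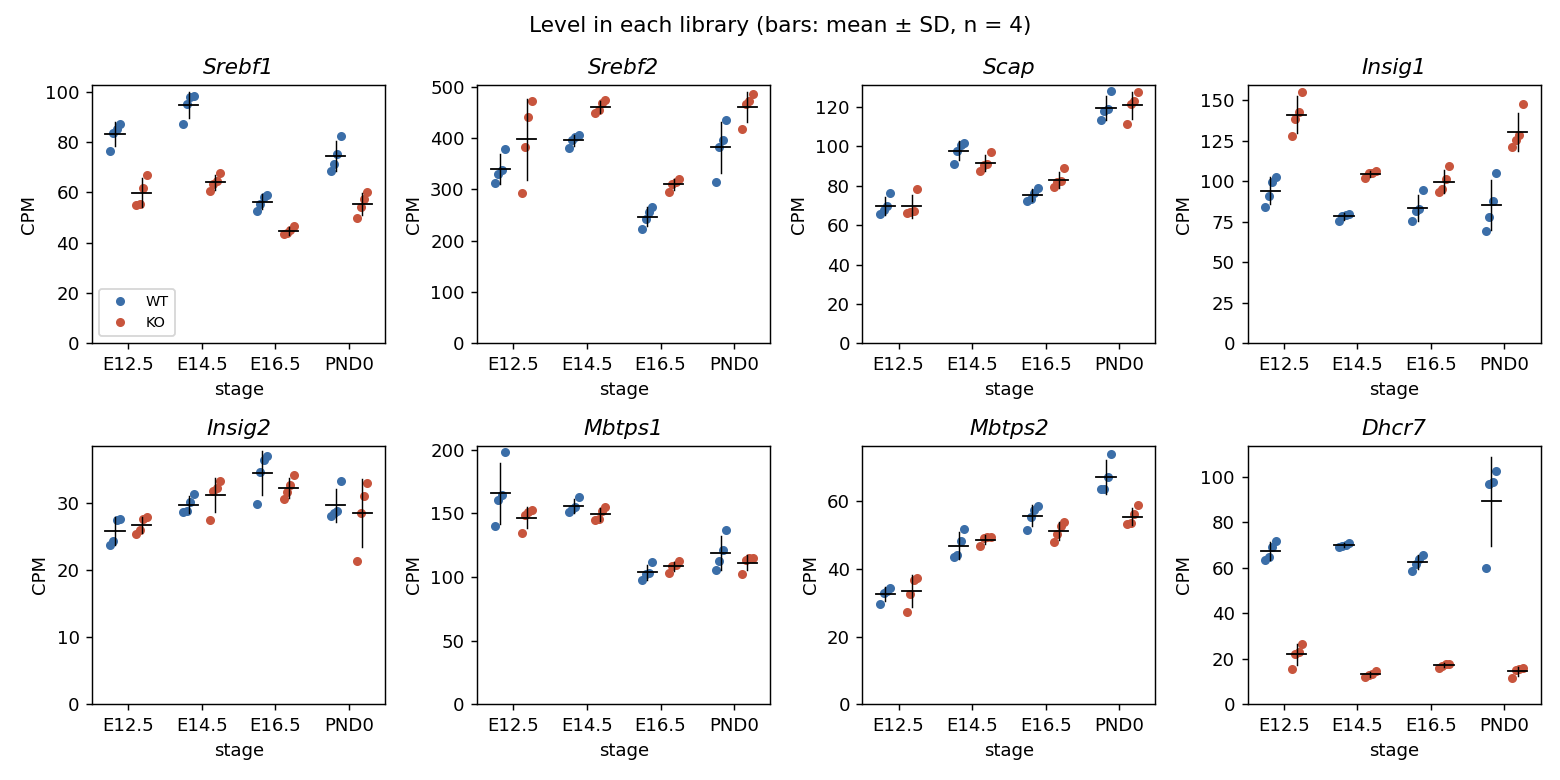
Level of each of the 7 genes and of Dhcr7 in every library, in CPM on a linear axis from 0, by stage (WT blue, KO red; horizontal bars are means and vertical bars SDs over 4 libraries). All Srebf1 points of the KO lie below those of the WT at each of the 4 stages, and the KO points of Insig1 lie above those of the WT at every stage but E16.5, where 1 KO point lies within the WT range.

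Srebf1 was the member that fell. Its KO mean was 72.0%, 67.6%, 79.4% and 74.4% of the WT mean at the 4 stages, given here and below in order of age (E12.5 first, PND0 last). Srebf1 lies on the minus strand of chromosome 11 (chr11:60199089-60222581, GRCm38), with 5634 bases of exon. At E12.5 the WT libraries had 83.7, 87.1, 76.4 and 85.1 CPM, and the KO libraries had 67.0, 61.9, 55.2 and 55.0 CPM. At E14.5 the WT libraries had 98.2, 87.3, 98.0 and 95.3 CPM, and the KO libraries had 67.7, 60.7, 63.3 and 64.5 CPM. The highest KO library was below the lowest WT library at both stages. At E16.5 the WT libraries had 59.0, 52.8, 58.1 and 55.3 CPM, and the KO libraries had 45.1, 46.5, 43.3 and 43.8 CPM. At PND0 the WT libraries had 75.2, 68.6, 71.3 and 82.2 CPM, and the KO libraries had 59.9, 49.8, 54.1 and 57.4 CPM. The groups did not overlap at these stages either, so the order held in all 16 KO libraries. Fewer cells that express a gene and less RNA per cell cannot be told apart in whole brain, for this and every other member. Exons of Srebf1 share 109 bases with those of Rai1 on the opposite strand. Without strand information reads there cannot be told apart, and Rai1 had 113369 counts in all libraries against 40372 of Srebf1.

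The log2 fold change of Srebf1, KO minus WT, was -0.49 ± 0.0919 (SE), -0.56 ± 0.0479, -0.35 ± 0.0593 and -0.43 ± 0.0905 at the 4 stages (4 libraries a group). By edgeR's quasi-likelihood test with Benjamini-Hochberg adjustment over all genes tested, the adjusted p-values were 0.589, 5.94e-11, 0.0599 and 0.0292. Srebf1 therefore passed the threshold of 0.05 at E14.5 and PND0. It ranked 6th of 17837 genes by p at E14.5. Averaged over the 4 stages in a fit of all 32 libraries, it fell by 0.45 ± 0.0366 on the log2 scale (adjusted p = 5.08e-10, edgeR). The PND0 call was lost when WT replicate 1, 3 or 4 or KO replicate 1 or 2 was left out (adjusted p from 0.0556 to 0.1002, edgeR), while the log2 fold change stayed between -0.48 and -0.38 over the 8 libraries left out in turn. It was also lost when a trend with exon length was removed (-0.37, adjusted p = 0.0743).

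The RefSeq annotation of GRCm38.p6 gives Srebf1 3 transcription starts, the most downstream of which is the start of the SREBP-1c transcript. The deposited counts are per gene, so the transcripts of these starts were not measured apart. The 300-base window around that downstream start (250 bases before to 50 after) held the only match among the 12 start windows of the 7 members to GGTNA followed after any 5 bases by GGTCA, the direct repeat that liver X receptors (LXRs) bind. Of 32851 such windows of all genes, 0.207% held this motif on either strand. The motifs here and below were chosen with the windows in view, so such shares describe a match and are no test of it. The match begins 182 bases before the start. The window is shown because Srebf1 is a known LXR target and the LXR target list is described below. Capitals mark matches to that motif, to the GC box (GGGCGG, in 35.7% of all windows) and to the CCAAT box (in 37.4% of all windows), each on either strand, and only bases before the start and outside annotated exons are printed.
Srebf1, downstream start, chr11:60210472-60210721, minus strand: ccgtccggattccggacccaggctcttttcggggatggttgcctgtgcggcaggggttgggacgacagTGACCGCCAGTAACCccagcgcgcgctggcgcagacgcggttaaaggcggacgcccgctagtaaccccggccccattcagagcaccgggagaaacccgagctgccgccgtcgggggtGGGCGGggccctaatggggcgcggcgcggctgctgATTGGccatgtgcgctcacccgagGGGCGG

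Srebf2 was higher in the KO brain, and its log2 fold change was smaller in size than that of Srebf1 at each stage. Its KO mean was 117%, 116%, 126% and 121% of the WT mean at the 4 stages, and it passed the test at E14.5. Srebf2 lies on the plus strand of chromosome 15 (chr15:82147181-82205379), with 7184 bases of exon. At E14.5 the WT libraries had 402, 381, 406 and 396 CPM, and the KO libraries had 468, 474, 454 and 449 CPM. At E16.5 the WT libraries had 266, 223, 256 and 243 CPM, and the KO libraries had 321, 311, 314 and 296 CPM. At these stages every KO library was above every WT library. At E12.5 the WT libraries had 330, 338, 312 and 380 CPM, and the KO libraries had 294, 472, 441 and 383 CPM. The 294 CPM came from KO replicate 1, the library with the high ribosomal RNA share, and the other 3 KO libraries were above all WT libraries. At PND0 the WT libraries had 382, 434, 396 and 315 CPM, and the KO libraries had 466, 473, 417 and 485 CPM. There the groups overlapped by 1 KO library, and the lowest value was that of WT replicate 4.

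The log2 fold change of Srebf2 was 0.21 ± 0.142 (SE), 0.22 ± 0.0301, 0.31 ± 0.0611 and 0.26 ± 0.0872 at the 4 stages (4 libraries a group). The adjusted p-values (edgeR) were 0.875, 3.72e-06, 0.133 and 0.127. The mean over the stages rose by 0.26 ± 0.0488 (adjusted p = 0.00461, edgeR), and this call was kept when each of the 32 libraries was left out in turn. Without KO replicate 1 the value at E12.5 was 0.31 (adjusted p = 0.561, edgeR), and without WT replicate 4 the value at PND0 was 0.19 (adjusted p = 0.205). With no filter on low counts Srebf2 passed at PND0 (0.27, adjusted p = 0.0373, edgeR).

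The start window of Srebf2 held TCACCCCA, the core of a sterol regulatory element (SRE), which SREBPs bind. The core begins 162 bases before the RefSeq start, and 1.56% of all windows held it on either strand. No window of the other 6 members held these letters. The printed stretch shows the core beside an inverted CCAAT box and a GC box, and capitals mark the 3 matches.
Srebf2, chr15:82147019-82147180, plus strand: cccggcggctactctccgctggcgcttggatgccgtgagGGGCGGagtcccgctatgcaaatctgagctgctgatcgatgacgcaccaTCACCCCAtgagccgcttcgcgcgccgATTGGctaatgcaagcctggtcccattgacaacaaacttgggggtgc

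Because Srebf2 was higher and Srebf1 lower, their ratio differed more than either gene did. Per kilobase of exon, Srebf2 stood at 3.21 ± 0.205 (SD, n = 4) times Srebf1 in WT brain at E12.5, and at 3.28 ± 0.0974, 3.44 ± 0.0902 and 4.08 ± 0.821 at the later stages. In KO brain the ratio was 5.29 ± 1.27, 5.66 ± 0.327, 5.45 ± 0.223 and 6.56 ± 0.655. The lowest KO ratio was above the highest WT ratio at the 3 later stages, and at E12.5 the ratio of 3.44 in KO replicate 1 lay within the WT range of 3.04 to 3.50. The ratio is given as a description, with no test.

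The SREBP escort gene Scap did not pass the KO test at any stage. Scap lies on the plus strand of chromosome 9 (chr9:110333288-110384950) and has 7443 bases of exon. Its KO mean was 99.5%, 93.7%, 110.5% and 101% of the WT mean at the 4 stages. At E16.5 the WT libraries had 78.6, 73.0, 76.4 and 72.3 CPM, and the KO libraries had 88.7, 81.8, 79.2 and 82.1 CPM. The groups did not overlap there, with a log2 fold change of 0.13 ± 0.0545 (SE) and an adjusted p of 0.394 (edgeR). At the other stages they overlapped. The mean difference over the stages was 0.01, with a 95% interval from -0.05 to 0.08 (adjusted p = 0.917, edgeR). Without strand information, reads of Scap cannot be told apart from those of the antisense gene 5830462I19Rik over the 985 bases their exons share, although that gene had 648 counts in all libraries against 54221 of Scap.

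Insig1 rose in the KO brain, and its log2 fold change was the highest among the members at every stage but E16.5, where that of Srebf2 was higher. Insig1 and Insig2 are the ER proteins that retain Scap, and Insig1 is itself a known SREBP target. Insig1 lies on the plus strand of chromosome 5 (chr5:28071363-28078662) with 3093 bases of exon. Its KO mean was 150%, 134%, 119% and 153% of the WT mean at the 4 stages. At E12.5 the WT libraries had 84.4, 90.7, 99.6 and 102 CPM, and the KO libraries had 139, 143, 155 and 128 CPM. At E14.5 the WT libraries had 75.7, 78.5, 80.2 and 79.2 CPM, and the KO libraries had 106, 102, 105 and 105 CPM. At both stages every KO library was above every WT library. At E16.5 the WT libraries had 75.7, 94.4, 82.8 and 81.5 CPM, and the KO libraries had 93.6, 101, 94.99 and 109 CPM. Here the lowest KO library was just below the highest WT library. At PND0 the WT libraries had 88.1, 78.1, 105 and 69.7 CPM, and the KO libraries had 125.3, 121, 148 and 128 CPM. The groups did not overlap, and among the WT libraries replicate 4 was the lowest.

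The log2 fold change of Insig1 was 0.56 ± 0.0873 (SE), 0.42 ± 0.0420, 0.24 ± 0.0695 and 0.61 ± 0.112 at the 4 stages (4 libraries a group), with adjusted p-values of 0.318, 2.68e-09, 0.293 and 0.0201 (edgeR). In the mean over the stages it rose by 0.47 ± 0.0447 (adjusted p = 2.74e-08, edgeR). Leaving out WT replicate 1 or KO replicate 1 ended the PND0 call (adjusted p = 0.0594 and 0.0630, edgeR). Leaving out WT replicate 4 or KO replicate 3, the PND0 libraries named above as standing apart, gave 0.53 and 0.54 and kept it.

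The start window of Insig1 held an E-box (CACGTG, in 7.15% of all windows on either strand) that begins 101 bases before the start, an inverted CCAAT box and 3 GC boxes, marked in capitals. It held no TCACCCCA, which says only that these letters are not in these 300 bases. The stretch is printed beside those of Srebf1 and Srebf2 because these are the 3 members that passed the KO test.
Insig1, chr5:28071162-28071362, plus strand: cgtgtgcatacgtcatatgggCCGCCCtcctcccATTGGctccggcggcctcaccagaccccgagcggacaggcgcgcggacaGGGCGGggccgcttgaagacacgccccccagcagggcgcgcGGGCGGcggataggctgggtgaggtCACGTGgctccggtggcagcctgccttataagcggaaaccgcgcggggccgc

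Insig2, the paralogue that also retains Scap, did not follow Insig1. Insig2 lies on the minus strand of chromosome 1 (chr1:121304353-121332589) with 3473 bases of exon, and its 8 group means lay between 25.7 and 34.4 CPM. Its KO mean was 104%, 105%, 93.6% and 95.9% of the WT mean at the 4 stages, and the groups overlapped at every stage. The adjusted p-values ran from 0.604 to 0.958 (edgeR). The mean difference over the stages was -0.01 with a 95% interval from -0.11 to 0.09, which does not reach the mean difference of 0.47 measured for Insig1. Per kilobase of exon, the ratio of Insig1 to Insig2 was 4.11 ± 0.168 (SD, n = 4) in WT brain at E12.5, and 2.97 ± 0.128, 2.73 ± 0.155 and 3.27 ± 0.786 at the later stages. In KO brain it was 5.95 ± 0.613, 3.80 ± 0.362, 3.47 ± 0.160 and 5.38 ± 1.64. At none of the 4 stages did the ratio overlap between the groups, although at PND0 the lowest KO ratio, 4.27, was close to the highest WT ratio, 4.23. The highest ratio, 7.78, came from KO replicate 3 at PND0, the library with the most blood marker RNA of that stage, which also had the lowest Insig2 level of any library, 21.3 CPM.

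**Figure D2:**
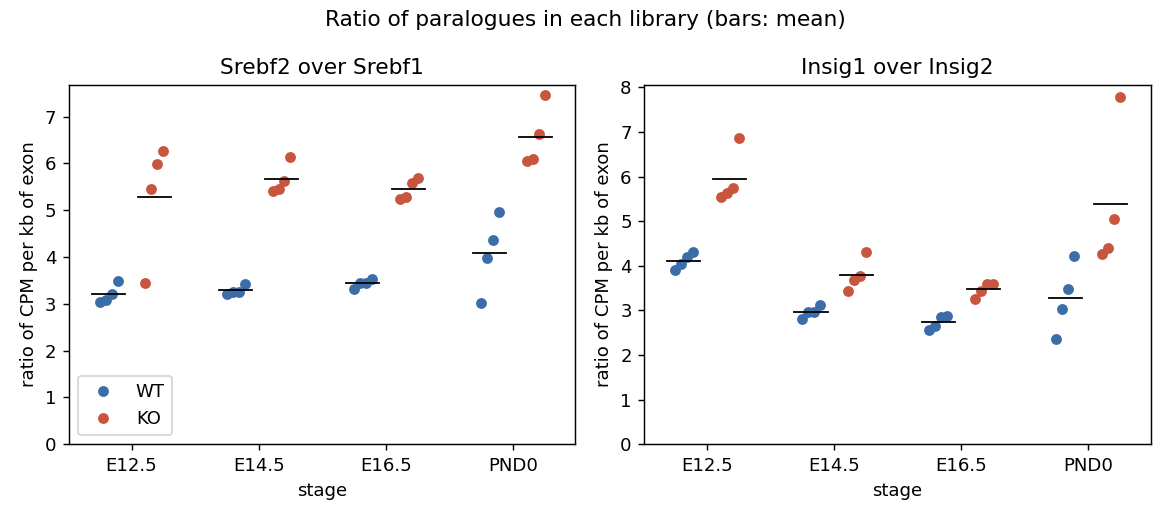
Ratio of levels per kilobase of exon in each library, by stage, on linear axes from 0: Srebf2 over Srebf1 (left) and Insig1 over Insig2 (right). Points are libraries and bars are means of 4 (WT blue, KO red). KO points lie above all WT points of their stage, apart from the Srebf2 to Srebf1 ratio of 3.44 in KO replicate 1 at E12.5.

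The protease genes did not pass the KO test at any stage. Mbtps1, site-1 protease, makes the first cut of SREBP and also cuts ATF6, and lies on the minus strand of chromosome 8 (chr8:119508156-119558735) with 10539 bases of exon. Its KO mean was 88.4%, 95.99%, 104% and 93.6% of the WT mean at the 4 stages, and the groups overlapped at every stage. Its mean difference over the stages was -0.07 with a 95% interval from -0.15 to 0.01 (adjusted p = 0.481, edgeR). Mbtps2, site-2 protease, makes the second cut, within the membrane, and lies on the minus strand of the X chromosome (chrX:157535371-157598715) with 10105 bases of exon. At PND0 its WT libraries had 67.2, 63.7, 74.1 and 63.6 CPM, and its KO libraries had 53.6, 53.3, 56.1 and 58.9 CPM. The groups did not overlap, and the KO mean was 82.6% of the WT mean. The log2 fold change was -0.28 ± 0.0842 (SE) with an adjusted p of 0.0962 by edgeR. It passed by DESeq2 (-0.28, adjusted p = 0.0471) and in the edgeR fit of all 32 libraries (-0.28, 0.0282), and was -0.15 with 0.413 when a trend with exon length was removed. Before birth the KO mean of Mbtps2 was 102%, 104% and 91.9% of the WT mean.

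**Figure D3:**
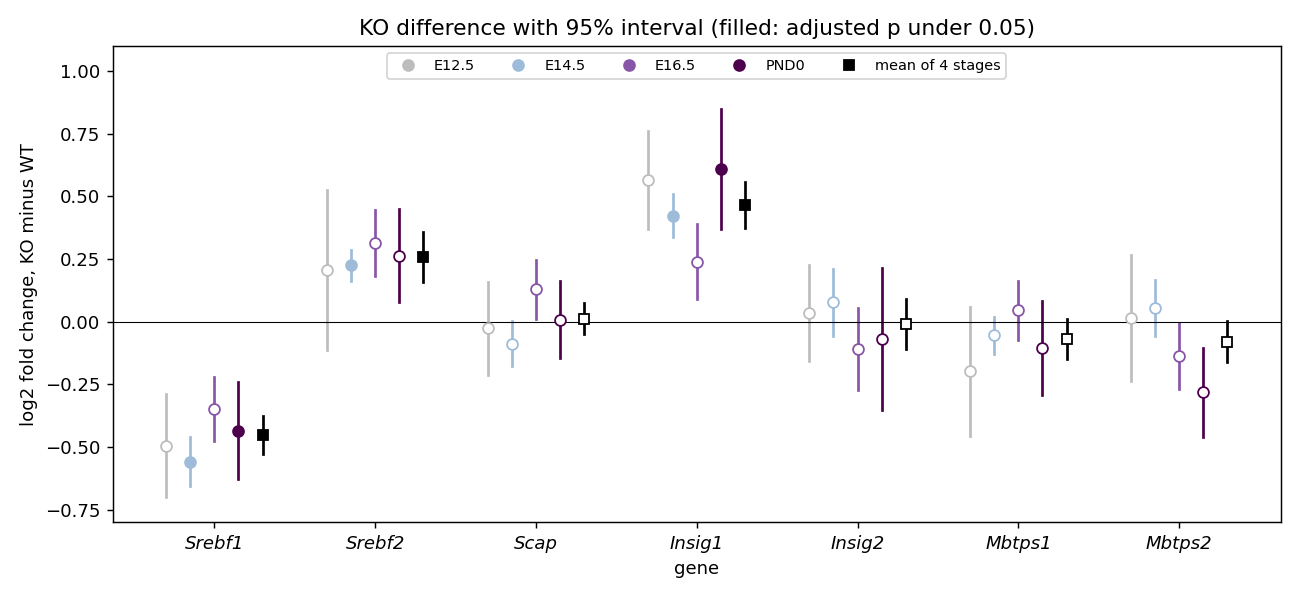
Log2 fold change of each gene, KO minus WT, at each stage and averaged over the 4 stages, with 95% intervals from edgeR's fits (filled symbols: adjusted p under 0.05). Srebf1 lies below 0 and Insig1 above 0 at every stage, and the intervals of the stage means of Scap, Insig2, Mbtps1 and Mbtps2 include 0.

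Counted together, 3 of the 7 members passed the test at E14.5 and 2 at PND0, and none did at E12.5 or E16.5. Of all genes tested, 0.527% passed at E14.5 and 1.44% at PND0, against 42.9% and 28.6% of the members. At E12.5, where 0.0177% of all genes passed, 2 members (Srebf1 and Insig1) had an unadjusted p under 0.05, as 4.7% of all genes did, and DESeq2 called both (adjusted p = 0.00803 and 3.67e-05), beside 0.13% of all genes. At E16.5, where 0.0462% of all genes passed, 5 members had an unadjusted p under 0.05, as 11.5% of all genes did. DESeq2 called 2 of them, Srebf2 and Insig1 (adjusted p = 0.000798 and 0.0492), beside 4.93% of the genes it gave an adjusted p. Its own filter on mean counts left Srebf1 with no adjusted p at that stage. With that filter at its default level DESeq2 called Srebf1 and Srebf2 at E16.5 (adjusted p = 0.000599 and 0.000955) and not Insig1 (0.0709). By edgeR, Srebf2 passed at E16.5 without WT replicate 1, the library with the high ribosomal RNA share (adjusted p = 0.0488), Srebf1 without WT replicate 2 (0.0318), and both and Insig1 with no filter on low counts (0.000610, 0.00155 and 0.0203). Groups that did not overlap were found for 2, 3, 3 and 3 members at the 4 stages, beside 2.53%, 4.77%, 6.39% and 11.9% of all genes tested. Averaged over the stages 3 members passed, beside 0.558% of all genes. The members were named with earlier results of these data known, so these counts describe them and support nothing further.

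No member passed the test for a KO effect that differs between stages (edgeR, 3 contrasts), which 0.0256% of all genes did. Mbtps2 and Insig1 had unadjusted p-values of 0.0143 and 0.0251, with adjusted p-values of 0.273 and 0.312, and DESeq2 called neither (0.102 and 0.200). The adjusted p of Mbtps2 was 0.0356 without KO replicate 1 at E12.5. For Srebf1 and Srebf2 the adjusted p-values were 0.602 and 0.965. A call at one stage and none at another is therefore not shown to be a difference between stages for any member. The spread that the stage fits estimated differed, with a common biological coefficient of variation of 19.9%, 6.25%, 9.99% and 16.6% at the 4 stages. In the fit of all 32 libraries, with 14.8%, the E14.5 difference of Insig1 had an adjusted p of 0.172 and that of Srebf2 1, while Srebf1 still passed.

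In WT brain 6 of the 7 members changed over the 4 stages (edgeR, 16 libraries), and 84.1% of all genes tested did. Insig1 did not (adjusted p = 0.0855), and its WT stage means lay between 78.4 CPM at E14.5 and 94.3 CPM at E12.5. It passed without replicate 1 at E12.5 or without replicate 3 or 4 at PND0 (adjusted p = 0.0341, 0.0169 and 0.0238). Mbtps2 and Scap were lowest at E12.5 and highest at PND0, with a highest to lowest ratio of 2.05 and 1.71. Mbtps1 was highest at E12.5, at 166 CPM, and lowest at E16.5, at 104 CPM. Srebf1 and Srebf2 shared their highest stage, E14.5, and their lowest, E16.5, with ratios of 1.68 and 1.60. Stage and deposited table cannot be told apart in these comparisons.

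From E12.5 to E14.5, 6 of the 7 members passed, where 57.8% of all genes did. Mbtps2 rose by 0.49 ± 0.0727 (log2, SE), Scap by 0.46 ± 0.0566, Srebf2 by 0.20 ± 0.0596, Insig2 by 0.18 ± 0.0682 and Srebf1 by 0.16 ± 0.0609, and Insig1 fell by 0.29 ± 0.0586. Mbtps1 did not pass (adjusted p = 0.300). The calls of Insig2 and Srebf1 lay near the threshold (adjusted p = 0.0453 and 0.0430, edgeR) and were lost in 7 and 5 of the 8 cases where a library was left out. From E14.5 to E16.5, 6 passed, beside 57.5% of all genes: Srebf1 fell by 0.73 ± 0.0595, Srebf2 by 0.66 ± 0.0587, Mbtps1 by 0.56 ± 0.0516 and Scap by 0.36 ± 0.0538, while Mbtps2 rose by 0.27 ± 0.0683 and Insig2 by 0.23 ± 0.0756. Insig1 did not pass (0.11, adjusted p = 0.117), although it did without WT replicate 1 at E16.5, the library with the high ribosomal RNA share (0.0401), and the Insig2 call was lost without WT replicate 1 at E14.5 (0.0625). From E16.5 to PND0, 4 passed, beside 53.2% of all genes: Scap rose by 0.64 ± 0.0673, Srebf2 by 0.60 ± 0.0927, Srebf1 by 0.37 ± 0.0794 and Mbtps2 by 0.24 ± 0.0773. The adjusted p of Mbtps2 was 0.0714 without WT replicate 3 at E16.5 and 0.0527 without WT replicate 3 at PND0. Insig2 fell by 0.24 ± 0.0985 and did not pass (adjusted p = 0.0507, edgeR). It passed without WT replicate 1 at E16.5 (-0.30, 0.0232) or WT replicate 4 at PND0 (-0.30, 0.0168). Mbtps1 did not pass (0.17, adjusted p = 0.107, edgeR), although it did without WT replicate 2 at PND0 (0.0403). Insig1 moved by less than 0.01 in this step, with a 95% interval from -0.24 to 0.24.

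Levels can be ranked between genes only per length. In CPM per kilobase of exon (RPKM), Srebf2 was the highest member in all 8 groups, from 34.4 ± 2.58 (SD, n = 4) in WT at E16.5 to 64.2 ± 1.62 in KO at E14.5, and Insig1 was second, from 25.3 ± 0.628 to 45.7 ± 3.64. Their libraries overlapped only in KO brain at E12.5. Mbtps2 was the lowest in all 8 groups, from 3.24 ± 0.203 to 6.64 ± 0.488. Its exons contain the whole of Yy2, on the same strand, over 2867 bases, and Yy2 had 0 counts in all libraries. With those bases left out of the length, the level of Mbtps2 would be 9.28 RPKM at PND0 in WT, above the 8.53 of Insig2 there. In WT brain at E16.5 Scap, Srebf1, Insig2 and Mbtps1 lay between 9.85 and 10.1 RPKM, with overlapping libraries. By rank Srebf1 was at 4, 3, 4 and 4 of 7 in WT brain at the 4 stages, and at 4, 5, 6 and 5 in KO brain. The other WT neighbours in rank whose libraries overlapped were Mbtps1 and Srebf1, at E12.5 and at PND0.

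**Figure D4:**
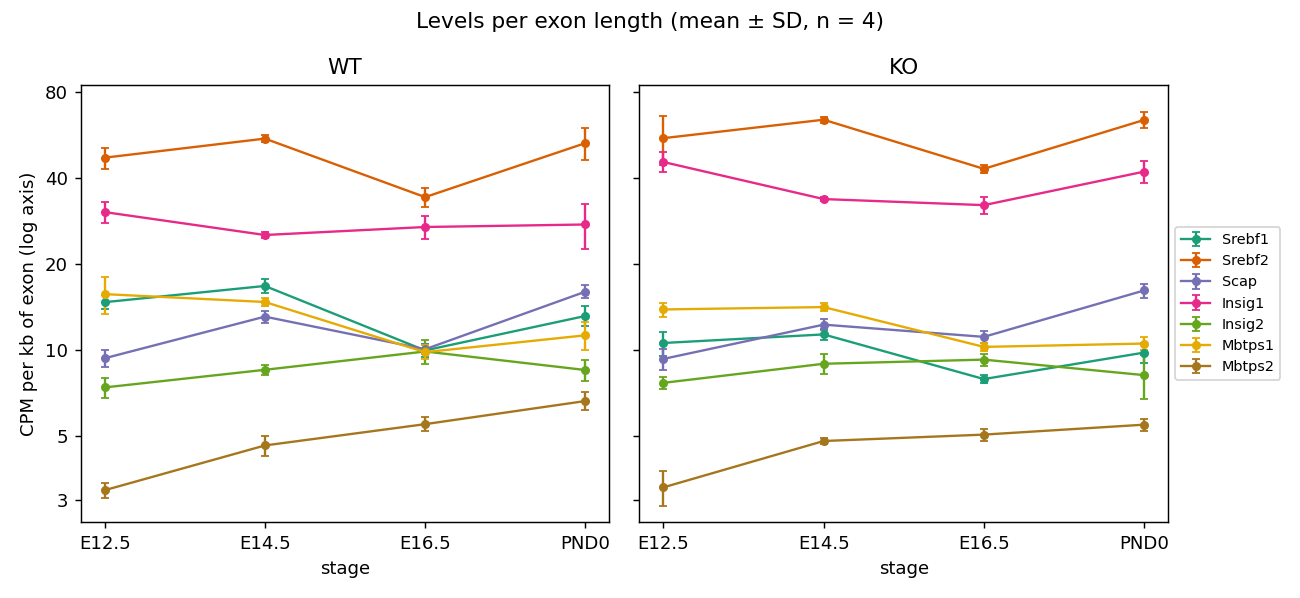
Level of each gene in CPM per kilobase of exon (log axis) over the 4 stages in WT (left) and KO (right) brain, as means with SDs of 4 libraries. Srebf2 and Insig1 are the highest lines in both, and in WT at E16.5 the lines of Scap, Srebf1, Insig2 and Mbtps1 meet near 10 RPKM.

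The members did not vary together as a group across the 32 libraries. After the mean of each stage was removed from the log2 CPM, Pearson's r was -0.86 between Srebf1 and Insig1, -0.69 between Srebf1 and Srebf2 and 0.62 between Srebf2 and Insig1. These values still hold the difference between KO and WT. With the mean of each group removed they were -0.26, -0.24 and 0.09. The largest values then were -0.56 between Srebf1 and Mbtps2 and 0.45 between Srebf2 and Scap. With stage means kept, r ran from -0.66 between Mbtps1 and Mbtps2 to 0.72 between Scap and Mbtps2. Between Scap and Insig2, r was -0.15 with stage means removed. These r values are descriptions over 32 libraries that share stages, genotypes and scaling.

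Over 12491 genes that averaged 5 CPM or more, the genes most like each member over the 32 libraries were found by Pearson's r on log2 CPM with stage means removed. For Srebf1 they were Abcg1 (0.93), Dhcr7 (0.89) and Lpcat3 (0.78). For Srebf2 they included Acly (0.88) and Fads1 (0.86), and for Insig1 they were Hmgcs1, Nsdhl (0.90 each) and Fdft1 (0.87). These values also hold the genotype difference. For Scap they were Mafg (0.73), Map1s (0.71) and Trpc4ap (0.66), for Insig2 Zfp958 (0.76), Slc16a13 (0.75) and Kbtbd4 (0.74), for Mbtps1 Khnyn (0.83), Svil and Otud7b (0.80 each), and for Mbtps2 Larp4b (0.80), Rab11fip2 and Astn1 (0.77 each). With stage means kept, the leading gene was Zkscan5 for Srebf1 (0.78), Fads1 for Srebf2 (0.92), Dctn1 for Scap (0.97), Cyp51 for Insig1 (0.86), Mc4r for Insig2 (0.79), Khnyn for Mbtps1 (0.97) and Lonrf2 for Mbtps2 (0.97).

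Genes whose products act on, work with or are cut by the 7 proteins were counted in 4 lists. Of 13 genes for ER retention and for degradation of Insig and Scap, 1 passed in any stage: Rnf145, a ubiquitin ligase that acts on Scap, fell at E14.5 (-0.20 ± 0.0358, adjusted p = 0.00113, edgeR), beside 0.527% of all genes called at that stage. Its values at the other stages were -0.14, -0.12 and -0.10, none of which passed. The 11 COPII genes, the 11 partners and turnover factors of nuclear SREBP, and the 9 genes of the site-1 protease cofactor and other protease substrates had no call at any stage by edgeR. DESeq2 called 0, 0, 0 and 1 COPII gene at the 4 stages, 0, 1, 0 and 2 nuclear partners, 0, 0, 0 and 1 gene of the protease list, and 0, 1, 0 and 1 for ER retention, beside 0.13%, 1.18%, 4.93% and 7.19% of all genes with an adjusted p. At an unadjusted p under 0.05 the COPII list had 1, 1, 3 and 2 genes at the 4 stages, the nuclear partners 0, 2, 2 and 3, and the protease list 2, 3, 0 and 3, beside 4.7%, 8.73%, 11.5% and 18% of all genes tested. Their median log2 fold changes lay between -0.17 and 0.04, beside medians within 0.01 of 0 for all genes tested. Of 6 genes for other proteins with a sterol-sensing domain, like that of Scap, 5 were tested at each stage. At E14.5, 1 passed higher and 1 lower by edgeR, beside 0.219% and 0.308% of all genes tested. The lower one was Ptch1, a Hedgehog receptor (-0.19). Ptch1 also fell at PND0 (-0.86), as 1.03% of all genes tested did. The E14.5 call of Ptch1 was lost in 5 of the 8 cases where a library was left out. At PND0 the summed hindbrain and spinal cord markers were lower in KO, at 0.238 to 0.515 CPM against 1.24 to 7.32 CPM in WT, with 4 of the 5 genes (Hoxb4, Hoxb5, Hoxa5 and Hoxc4) at 0 in all KO libraries. The KO sums lay near the 0.145 to 0.185 CPM that a count of 0 allows for 1 gene at PND0. Among WT libraries the sums ran from 0.366 to 7.90 CPM at E12.5 and from 0.255 to 7.49 CPM at E16.5. The part of these markers in the PND0 differences was not tested.

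Target genes of the SREBPs are given as measures beside the members. Of 21 SREBP-2 targets, 0, 15, 4 and 3 rose by edgeR at the 4 stages, and none fell. Of all genes tested 0.0059%, 0.219%, 0.0289% and 0.402% rose. At E12.5 all 21 had positive values, with a median of 0.48. Of these, 18 had an unadjusted p under 0.05 (edgeR), as 4.7% of all genes did. DESeq2 called 12 at E12.5, beside 0.0696% of all genes higher by DESeq2. The medians at the later stages were 0.34, 0.25 and 0.33, and the mean over the stages rose for 18, beside 0.399% of all genes. At E14.5 those with the smallest p included Hmgcs1 (0.48), Fdft1 (0.43), Msmo1 (0.51), Cyp51 (0.35) and Sqle (0.34), enzymes of cholesterol synthesis. In the edgeR fit of all 32 libraries, where 4 genes in all passed at E14.5, the calls of these 5 were lost (adjusted p from 0.401 to 1), as were the E14.5 calls of Rnf145, Ptch1, Scd2, Gpam and Abca1 (from 0.708 to 1). In that fit the E16.5 calls named here and below were lost too, except that of Abcg1. At E16.5 those that passed included Sqle (0.34) and Mvd (0.51), and each of these calls was lost in at least 5 of the 8 cases where a library was left out. At PND0 Mvd (0.79), Nsdhl (0.57) and Acat2 (0.48) passed. Leaving out a library ended their calls in 1, 6 and 7 of the 8 cases (the 1 case of Mvd was KO replicate 1, adjusted p = 0.0507).

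Of 16 SREBP-1 targets none rose at any stage by edgeR, and the calls were of genes that fell, which 0.0118%, 0.308%, 0.0173% and 1.03% of all genes tested did at the 4 stages. Scd2 (-0.30 ± 0.0282, adjusted p = 5.45e-10), a desaturase, and Gpam (-0.25 ± 0.0479, adjusted p = 0.00207), the first enzyme of glycerolipid synthesis, fell at E14.5. Scd1 (-0.45 ± 0.0880, adjusted p = 0.0249) fell at PND0, and that call was lost in 4 of the 8 cases where a library was left out. No gene of the list passed at E12.5 or E16.5. At an unadjusted p under 0.05 (edgeR) the list had 1, 9, 6 and 5 genes at the 4 stages. Of these 0, 6, 6 and 2 were higher in KO and 1, 3, 0 and 3 lower. The shares of all genes tested at that level were 4.7%, 8.73%, 11.5% and 18%. DESeq2 called 0, 2, 4 and 1 of the list higher and 0, 2, 0 and 2 lower at the 4 stages, and at E16.5 its filter left 7 of the 16 with an adjusted p. Of all genes with one, 0.0696%, 0.533%, 1.94% and 3.08% were called higher and 0.0609%, 0.65%, 2.99% and 4.11% lower. The list medians were 0.16, 0.06, 0.16 and 0.07 at the 4 stages, so the list median was positive while Srebf1 itself was lower in KO. In the mean over the stages Fads1, a desaturase, rose (0.13, adjusted p = 0.0403, edgeR), and Scd2 and Gpam fell (-0.19 each), as 0.159% of all genes did. The Fads1 and Gpam calls were each lost in 21 of the 32 cases where a library was left out.

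LXRs are nuclear receptors for sterols, and Srebf1 is among their known targets. Of the list of 10 LXR and RXR receptors and targets, Abcg1, a sterol exporter, fell at every stage (-1.59, -1.65, -1.17 and -1.38), and Abca1, another exporter, fell at E14.5 (-0.52), E16.5 (-0.67) and PND0 (-1.03). The E16.5 call of Abca1 was lost in 7 of the 8 cases where a library was left out. In the mean over the stages Lpcat3, a phospholipid-remodelling enzyme, fell too (-0.21, adjusted p = 0.00461, edgeR). Of all genes tested, 0.0118%, 0.308%, 0.0173% and 1.03% passed lower at the 4 stages, and 0.159% in that mean. The receptor genes Nr1h2, Nr1h3, Rxra, Rxrb and Rxrg did not pass at any stage by edgeR. DESeq2 called Rxrb higher at PND0, where its value was 0.39, and the larger value of Nr1h3 (0.43) was not called. Abcg1 and Abca1, the only genes of the list that passed at a stage, lay in the same direction as Srebf1 where they passed. The listed targets Mylip and Apoe did not pass at any stage by edgeR. The list as a whole did not share that direction at every stage. Its medians were -0.15, -0.11, 0.0013 and 0.071 in order of age, and 5, 2, 5 and 6 of its 10 genes had positive values. The link of the genes that passed to Srebf1 was not tested.

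**Figure D5:**
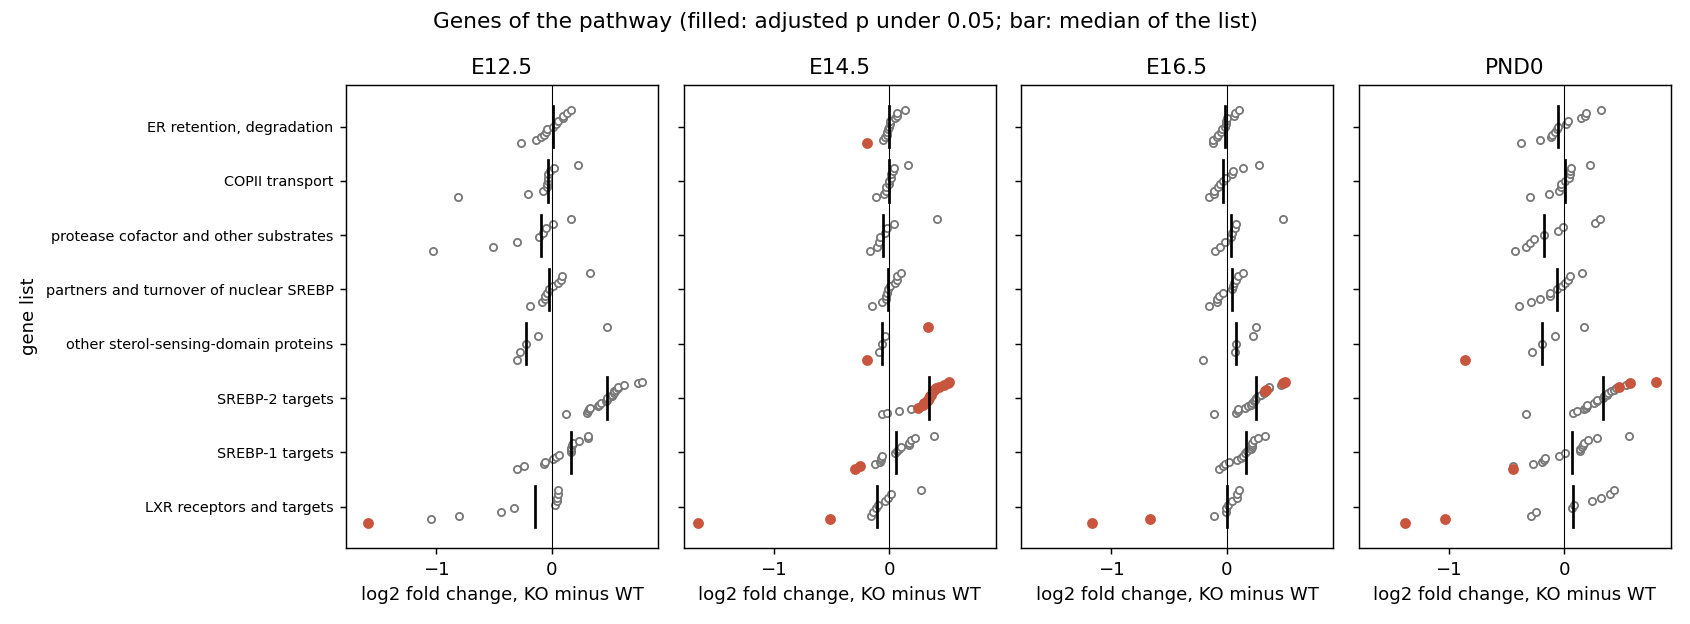
Log2 fold changes, KO minus WT, of the genes of the 8 pathway lists at each stage (points; filled where the adjusted p by edgeR was under 0.05; black bars are list medians). At E14.5 the filled points of the SREBP-2 targets are the 15 that rose, and at every stage the leftmost filled point is Abcg1.

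Several measured differences between the groups stand beside these results. Blood markers summed to 197 to 261 CPM in WT and 228 to 2261 CPM in KO libraries at PND0, and to 1932 to 8945 CPM in WT and 1568 to 4765 CPM in KO libraries at E12.5. Meninges and fibroblast markers summed to 943 to 2065 CPM in WT and 416 to 1970 CPM in KO libraries at E12.5. KO replicates 2 and 3 there, at 416 and 446 CPM, lay below all WT libraries. Markers of the oligodendrocyte lineage were lower in every KO library than in any WT library at E14.5 (108 to 114 CPM against 118 to 123 CPM) and at PND0 (266 to 293 CPM against 297 to 333 CPM). Choroid plexus markers summed to 292 to 587 CPM in WT and 583 to 937 CPM in KO libraries at PND0. The ribosomal RNA gene took 1.80% to 2.78% of counts in WT and 1.16% to 2.09% in KO libraries at PND0. With the level of that gene as a covariate, the PND0 log2 fold changes were -0.41 for Srebf1 and 0.44 for Insig1, each with an adjusted p of 0.740 (edgeR), and 2 genes in all passed. The PND0 calls of the pathway genes named above, Abcg1 included, were lost with it (adjusted p from 0.194 to 0.759). At E14.5 the ribosomal RNA gene took 1.04% to 1.17% of counts in WT libraries, and 1.03%, 0.869%, 2.68% and 2.55% in the KO libraries. There the calls of Srebf1, Srebf2 and Insig1 were kept with the covariate and without each library in turn. The covariate was chosen after earlier results of these data were known. The part of blood, meninges and fibroblasts, choroid plexus and oligodendrocyte lineage in the differences was not tested. At E14.5, where the spread was smallest, blood markers summed to 1120 to 1474 CPM in WT and 1066 to 1447 CPM in KO libraries.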

How the data were processed

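RNA from 32 whole brains was sequenced (polyadenylated RNA, paired reads, per the labels). The authors deposited raw gene counts, 1 table per stage, whole numbers and not normalized. HISAT2, SAMtools, featureCounts, DESeq2 and build mm10 (GRCm38) are listed in the submitters' processing notes, with no versions or roles. The annotation and the strand setting of the counting are not given in the sources used here. Groups came from the genotype and time labels.

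Each stage (4 WT, 4 KO) was tested on its own with edgeR 4.0.16 in R 4.3.3: filterByExpr (minimum count 10, minimum total 15), TMM, robust quasi-likelihood F test, and Benjamini-Hochberg adjustment over all genes tested, with a threshold of 0.05. Standard errors were taken as the log2 fold change over the root of F. The difference of KO effects between stages and their mean used 1 fit of all 32 libraries, and WT steps used the WT libraries of neighbouring stages. Scripts were tested on simulated data. A chi-square test of counts, at least 2.90 per degree of freedom over 48 pairs within groups, found no library deposited 2 times.

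Alternatives were RLE size factors, no filter, DESeq2 1.42.0 (independent filtering at 0.05, set after its default of 0.1 had been run), each replicate left out, a replicate block, 1 fit of all 32 libraries, and a covariate of sex-linked genes, length offsets or a ribosomal RNA gene. Exon lengths came from GENCODE M21 (GRCm38) and promoter windows from RefSeq (GRCm38.p6), which matched all 7 members. Named genes outside the 7 were those past the threshold in each pathway list (at most 6 by p) and the 3 with the highest correlation with each member. Some genes that this rule names are not reported here. The members and lists were chosen with earlier results of these data known, and the motifs with the windows in view.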

Additional observations from a re-analysis of the deposited data

Results flagged for a closer look

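In 4 of 56 groups of 4 libraries (7 genes in 8 groups), 1 library lay far from the other 3 by Dixon's criterion for 4 values, which chance gives in about 1 group in 20. Insig2 was at 33.2 CPM in WT replicate 4 at PND0, against 27.99 to 28.8 CPM in the other 3. Mbtps1 was at 102.5 CPM in KO replicate 3 at PND0, against 113 to 115 CPM. Mbtps2 was at 46.7 CPM in KO replicate 4 at E14.5, against 49.1 to 49.4 CPM. Scap was at 78.1 CPM in KO replicate 2 at E12.5, against 66.2 to 67.0 CPM.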

How the results depend on the processing

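Of 70 results on the members, 42 kept their direction and their side of the threshold under every alternative run. Of 1414 alternative values, 1329 did so, 32 lost a call, 28 gained one and 25 changed sign. The mean KO differences of Srebf1, Srebf2 and Insig1 kept their calls in all 37 alternatives each. Genes past the threshold at E12.5 numbered 3 in the reported fit, 30 by DESeq2, 6 with the replicate block and 52 in 1 fit of all 32 libraries, and members 0, with 2 by DESeq2 and 2 in that fit. At E14.5 they numbered 94, with 146 unfiltered and 4 in that fit, where 1 of 3 members passed. At E16.5 they numbered 8, with 233 unfiltered, 168 by DESeq2, 5 with the block, 3 in that fit and 4 with the sex-gene covariate, and members 0, with 3 unfiltered and 2 by DESeq2. At PND0 they numbered 250, with 1091 unfiltered, 921 by DESeq2, 1205 in that fit, 70 with length offsets and 2 with the ribosomal covariate, and members 2, with 3 under the first 3 and 1 and 0 under the last 2. The difference between stages gave 5 genes, 11 unfiltered, 344 by DESeq2 and 0 with the block, and the mean effect 109, 72 unfiltered and 356 by DESeq2. DESeq2 with its filter at the default level, an alternative chosen after seeing the data, gave 23, 141, 904, 344 and 348 genes for E12.5, E16.5, PND0, the difference between stages and the mean, and 2 members at E12.5 and at E16.5. With a library left out, genes ranged from 35 to 263 at PND0 (members 0 to 2), 3 to 14 at E16.5 (members 0 to 1), 52 to 155 at E14.5, 1 to 5 at E12.5, 0 to 797 for the difference between stages (members 0 to 1, with the highest of both without KO replicate 1 at E12.5) and 63 to 256 for the mean effect. Apart from fewer samples or genes, the cause was not tested. Same-numbered WT and KO libraries did not stand out as pairs: 5 of 16 such pairs correlated over 0.1 (from -0.38 to 0.32). Of 16 WT libraries, 1 correlated best with its own number. With 4 libraries a group, these correlations cannot exclude a pairing. The block ended 2 calls of members, both in the WT step from E12.5 to E14.5 (Srebf1, adjusted p = 0.0974, and Insig2, 0.0948, edgeR).

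Among the members the sign turned only for values without a call: Scap at E12.5 (0.069 with length offsets) and at PND0 (-0.084 with the ribosomal covariate), Mbtps1 at PND0 (0.033 and 0.080 under these), Insig2 at PND0 (0.17 with the ribosomal covariate) and Insig1 in WT from E16.5 to PND0 (0.015 with RLE, 0.0097 by DESeq2 and 0.054 in 1 fit of 16 WT libraries). With a library left out, Scap ranged from -0.077 to 0.0099 at E12.5, from -0.015 to 0.040 at PND0 and from -0.0015 to 0.023 in the mean. Insig2 ranged from -0.14 to 0.046 at PND0 and from -0.028 to 0.019 in the mean, Mbtps2 from -0.040 to 0.088 at E12.5, and Insig1 in that WT step from -0.11 to 0.086.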
